A study of Rattus norvegicus with 9 samples.

Results

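The genes described here encode the collagens and laminins of basement membranes, together with nidogen and perlecan, in rat liver. The 10 genes listed were Col4a1, Col4a2, Col15a1, Col18a1, Lama5, Lamb1, Lamb2, Lamc1, Nid1 and Hspg2, and a gene was taken from every row of the array table whose gene symbol named it. Of these 10 genes, 9 had a row, with 15 of the 31042 probe sets tested, and all 15 carried the annotation "basement membrane" in the table. No row named Hspg2, the gene of perlecan, so its expression was not analysed here and only its promoter sequence was searched. A probe set is a group of short oligonucleotides that read 1 transcript. Where a gene had several, the probe set with the highest mean signal over all arrays gave the value of the gene, and the others are given beside it.

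The study asked how rottlerin, an activator of large-conductance potassium (BK) channels, alters liver fibrosis induced by carbon tetrachloride (CCl4), a hepatotoxin. Frozen liver from 9 male Sprague–Dawley rats was read on Affymetrix expression arrays, with 1 rat per array and 3 rats in each group. The vehicle group received neither agent, the CCl4 group received CCl4 in olive oil by intraperitoneal injection 2 times a week for 8 weeks, and the CCl4+Rot group received the same injections and rottlerin at 2.5 mg/kg body weight from 2 weeks after the first of them. The rats' age and the frequency of rottlerin injection were not given in the sources used here, and no group received rottlerin alone.

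A basement membrane is a thin sheet of matrix on which epithelial, endothelial and other cells rest. Laminins, trimers of an alpha, a beta and a gamma chain, assemble at the cell surface, type IV collagen forms a covalently linked network, and nidogen and perlecan connect the layers. The normal liver sinusoid lacks a continuous basement membrane, and deposition of one in the space of Disse is known as part of the capillarization that accompanies fibrosis.

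Signals are log2 values, so a difference of 1 is a doubling, and every difference below is the first group named minus the second. A detection call (present, marginal or absent) goes with each signal, and a difference is given only for a gene called present on at least 1 array of each group compared. A probe set was called changed at a Benjamini-Hochberg adjusted p below 0.05 over all probe sets and a change of at least 1.5-fold in limma. As a second fit, limma was run with a variance trend on the signal and robust estimation, and is named the robust fit below. With 3 arrays against 3, no exact permutation test (two-sided) can give a p under 0.1. In bulk liver, fewer cells of a type and less RNA per cell cannot be told apart.

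CCl4 replicate 3 stood apart from the other arrays. It had 12714 probe sets called present, compared with 15550 to 16849 on the others, and a median log2 signal of 7.81, compared with 6.79 to 7.01. Where a probe set was present on every one of the 9 arrays, the median was 9.53 on this array and 9.51 to 9.58 on the rest. The median log2 difference over all probe sets was 0.18 for CCl4 against vehicle, -0.12 for CCl4+Rot against CCl4 and 0.01 for CCl4+Rot against vehicle. Values that rest on this array are therefore also given without it. All 9 hepatocyte marker genes measured were called present on at least 3 arrays.

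The genes of both main type IV collagen chains lie head to head in the rat genome. In RefSeq on build GRCr8, the start of Col4a2 on the minus strand and the start of Col4a1 on the plus strand are separated by 76 bases, chr16:84885521-84885596. Of 16845 genes on the plus strand, 348 (2.07%) had a minus-strand start at most this far before their own. The stretch is shown because both genes share it, the window of Lamc1 because it holds the most GC boxes among the genes measured, and that of Col18a1 for a member that was not higher with CCl4. Each is given 5′ to 3′ on the strand stated, with GC boxes (GGGCGG or CCGCCC, either strand) in capitals. Matches may overlap, as the first 2 of Lamc1 do.

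Col4a2 to Col4a1, chr16:84885521-84885596, plus strand: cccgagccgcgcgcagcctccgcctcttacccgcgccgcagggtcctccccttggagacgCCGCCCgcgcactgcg
Lamc1, chr13:68051987-68052236, minus strand: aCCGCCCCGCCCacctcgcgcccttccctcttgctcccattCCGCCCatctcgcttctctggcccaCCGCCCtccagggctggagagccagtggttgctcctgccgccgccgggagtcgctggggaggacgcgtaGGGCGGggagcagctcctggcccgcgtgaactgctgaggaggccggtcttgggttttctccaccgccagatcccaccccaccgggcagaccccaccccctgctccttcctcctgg
Col18a1, chr20:11473395-11473644, plus strand: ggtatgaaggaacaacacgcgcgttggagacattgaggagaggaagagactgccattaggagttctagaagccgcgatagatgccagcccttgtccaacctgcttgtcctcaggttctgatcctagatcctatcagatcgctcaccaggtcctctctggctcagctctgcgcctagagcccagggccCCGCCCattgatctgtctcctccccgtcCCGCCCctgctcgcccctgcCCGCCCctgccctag

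In the 250 bases before the start, 8 of the 9 genes with a window in the RefSeq table held a GC box, compared with 30.5% of 33469 windows of the same length. Lamc1 and Hspg2 held 5 matches each, Lama5 4, Col18a1 3, Lamb1, Col4a2 and Nid1 2 each, and Col4a1 1, while Col15a1 held none. The CCAAT box (CCAAT or ATTGG) was found before Col4a1, Col4a2 and Nid1, and in 34% of all windows. None of the 9 windows held TATAAA or TTTATA, which 12.9% of all windows held. The GC content was 75.2% for Col4a1, 74.4% for Col4a2, 71.2% for Lamc1 and 54% for Col15a1, compared with a median of 51.2% over all windows. These matches are letters in a window and not bound sites, and Lamb2 had no window in the table.

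Type IV collagen forms the network of the sheet. Col4a1, the gene of its alpha 1 chain, was called present on all 9 arrays, with log2 signals of 10.06, 9.10 and 9.37 in vehicle rats, 9.99, 11.50 and 10.26 in CCl4 rats, and 10.80, 11.02 and 11.27 in CCl4+Rot rats. The CCl4 rats ranged widely and overlapped the vehicle rats at a single pair, while all CCl4+Rot rats lay above all vehicle rats. The log2 difference was 1.07 (SE 0.43, limma adjusted p = 0.379) for CCl4 against vehicle, which is 2.10-fold, and it was 0.61 without CCl4 replicate 2. The value was 0.45 (limma adjusted p = 0.816) for CCl4+Rot against CCl4, with a 95% confidence interval from -0.55 to 1.45. Against vehicle the CCl4+Rot rats were higher by 1.52 (limma adjusted p = 0.369), which is 2.87-fold, and the robust fit gave an adjusted p of 0.0934. Neither fit called the gene in any comparison.

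The other Col4a1 probe set behaved alike. Its log2 signals were 9.03, 8.02 and 7.97 in vehicle rats, 8.74, 10.27 and 9.55 in CCl4 rats, and 9.92, 10.19 and 10.38 in CCl4+Rot rats. Again CCl4+Rot lay above vehicle on every array and the CCl4 group overlapped both. Its log2 difference between CCl4+Rot and vehicle was 1.82 (SE 0.44, limma adjusted p = 0.282), and the robust fit called it at an adjusted p of 0.0431. With each array left out in turn, this call held in 3 of 9 fits, with adjusted p between 0.00999 and 0.233. It was lost without vehicle replicate 4 (0.212) or 5 (0.17), CCl4 replicate 3 (0.0769), or CCl4+Rot replicate 4 (0.103), 5 (0.126) or 6 (0.233). Without CCl4 replicate 1 this probe set was also called by the robust fit in CCl4 against vehicle, at 0.0258.

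Col4a2 encodes the alpha 2 chain, which joins alpha 1 chains in the same trimer. Its log2 signals were 8.01, 7.65 and 8.22 in vehicle rats, 8.01, 8.87 and 9.10 in CCl4 rats, and 8.81, 8.42 and 8.88 in CCl4+Rot rats. CCl4 rats 2 and 3 lay above the vehicle rats and rat 1 among them, and the CCl4+Rot rats lay above the vehicle rats and within the CCl4 range. The log2 difference was 0.70 (SE 0.32, limma adjusted p = 0.424) for CCl4 against vehicle, 0.04 (adjusted p = 0.98) for CCl4+Rot against CCl4 and 0.74 (adjusted p = 0.599) for CCl4+Rot against vehicle. The first of these was 0.48 (robust adjusted p = 0.479) without CCl4 replicate 3, where Col4a2 peaked, and 1.03 without CCl4 replicate 1. In the latter alone of the 9 fits with an array left out, the robust fit called it, at an adjusted p of 0.0387.

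The 2 genes were not highest in the same CCl4 rat: Col4a1 peaked in rat 2 and Col4a2 in rat 3. The change of Col4a1 exceeded that of Col4a2 by 0.37 with CCl4 (exact permutation p = 0.6) and by 0.78 between CCl4+Rot and vehicle (p = 0.2, adjusted p = 0.3). These p-values belong to 21 two-sided tests of gene pairs, none of which could fall below 0.1.

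**Figure D1:**
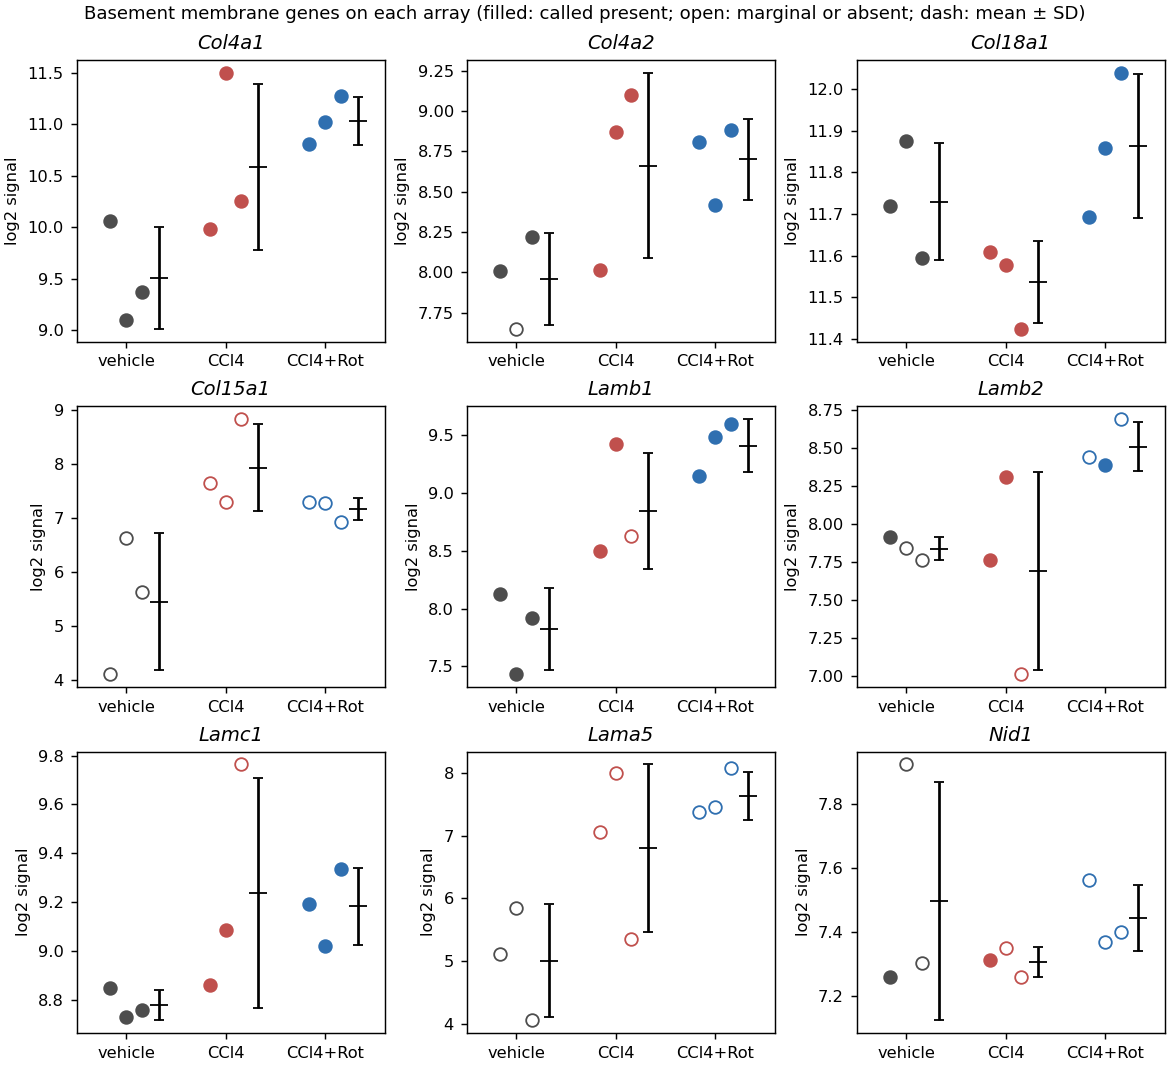
The log2 signal of the 9 genes with a probe set is plotted for each array by group, with filled points for present calls, open points for marginal or absent calls, and the mean ± SD (n = 3) beside each group. The vertical axes differ between genes. For Col4a1, Col4a2, Lamb1, Lamb2 and Lamc1 all CCl4+Rot points lie above all vehicle points, and every Lama5 and Col15a1 point is open.

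Collagens XV and XVIII are the multiplexins, which carry glycosaminoglycan chains and lie at the outer face of basement membranes. Col18a1, from which endostatin is cut and which hepatocytes are known to express, gave high signals with little spread. They were 11.72, 11.87 and 11.59 in vehicle rats, 11.61, 11.58 and 11.42 in CCl4 rats, and 11.69, 11.86 and 12.04 in CCl4+Rot rats. The CCl4 rats overlapped the vehicle rats, and all CCl4+Rot rats lay above all CCl4 rats. The log2 difference was -0.19 (SE 0.17, limma adjusted p = 0.655) for CCl4 against vehicle, with an interval from -0.58 to 0.20. Rats given rottlerin differed from CCl4 rats by 0.33 (limma adjusted p = 0.761). The other Col18a1 probe set gave 0.011 and 0.35 for these comparisons, so the lower value with CCl4 was not seen on both.

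Col15a1 could not be followed as a measured transcript. Its brighter probe set, which also names LOC100909752, was called present on none of the 9 arrays. The signals were 4.09, 6.62 and 5.62 in vehicle rats, 7.64, 7.30 and 8.85 in CCl4 rats, and 7.30, 7.28 and 6.93 in CCl4+Rot rats. The vehicle rats had the lowest signals, but all values stood under absent calls and no fold is given. The second probe set was called present only on CCl4 replicate 1, at 6.25.

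Lamb1, the gene of the laminin beta 1 chain, had log2 signals of 8.12, 7.43 and 7.92 in vehicle rats, 8.49, 9.42 and 8.63 in CCl4 rats, and 9.15, 9.48 and 9.59 in CCl4+Rot rats. All CCl4 rats and all CCl4+Rot rats lay above all vehicle rats. The log2 difference was 1.02 (SE 0.31, limma adjusted p = 0.281) for CCl4 against vehicle, which is 2.03-fold. It was 0.56 (limma adjusted p = 0.765) for CCl4+Rot against CCl4, with an interval from -0.15 to 1.27. The CCl4+Rot rats exceeded the vehicle rats by 1.58 (SE 0.31, unadjusted p = 0.001, limma adjusted p = 0.192), which is 3.00-fold.

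Lamb1 was the single member called on its gene value probe set by the robust fit, in CCl4+Rot against vehicle, at an adjusted p of 0.0136. With each array left out in turn, this call held in 5 of 9 fits, with adjusted p between 0.00389 and 0.112. It was lost without vehicle replicate 4 (0.0825), vehicle replicate 5 (0.0635), CCl4+Rot replicate 5 (0.0703) or CCl4+Rot replicate 6 (0.112), while the log2 difference stayed between 1.39 and 1.73. The robust fit without CCl4 replicate 1 also called Lamb1 in CCl4 against vehicle, at 0.0421.

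Lamb2 encodes the beta 2 chain, known from vascular and neuromuscular basement membranes. It was called present on 4 of 9 arrays, with log2 signals of 7.91, 7.84 and 7.76 in vehicle rats, 7.76, 8.31 and 7.01 in CCl4 rats, and 8.44, 8.39 and 8.69 in CCl4+Rot rats. The CCl4 rats spread to both sides of the vehicle rats, and the CCl4+Rot rats lay above all others. Of the CCl4+Rot arrays, Lamb2 was called present on replicate 5 only, marginal on replicate 6 and absent on replicate 4. The log2 difference between CCl4+Rot and CCl4 was 0.82 (SE 0.31, unadjusted p = 0.0328, limma adjusted p = 0.747), and it was 0.47 without CCl4 replicate 3. For CCl4 against vehicle it was -0.15 (limma adjusted p = 0.865), and it turned to 0.20 without that array.

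The change of Lamb1 with CCl4 exceeded that of Lamb2 by 1.17, without overlap of the arrays (exact permutation p = 0.1, adjusted p = 0.191). The excess between CCl4+Rot and vehicle was 0.91, also without overlap (exact permutation p = 0.1, adjusted p = 0.191). The difference of the changes between CCl4+Rot and CCl4 was -0.25 (exact permutation p = 0.4). The first and the second are at the smallest p this design allows, and neither passes a threshold of 0.05.

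Lamc1 encodes the gamma 1 chain, which most laminins share. Its log2 signals were 8.85, 8.73 and 8.76 in vehicle rats, 8.86, 9.09 and 9.76 in CCl4 rats, and 9.19, 9.02 and 9.34 in CCl4+Rot rats. All treated rats lay above the vehicle rats, CCl4 rat 1 by little, and the highest value was on CCl4 replicate 3, under a marginal call. The log2 difference was 0.46 (SE 0.25, limma adjusted p = 0.486) for CCl4 against vehicle and 0.19 without CCl4 replicate 3. It was -0.05 (limma adjusted p = 0.964) for CCl4+Rot against CCl4 and 0.40 (limma adjusted p = 0.782) for CCl4+Rot against vehicle. The other Lamc1 probe set, present on all arrays, gave 0.51, 0.15 and 0.65.

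Lama5, the gene of the alpha 5 chain of mature endothelial and epithelial laminins, was called absent on all 9 arrays on its brightest probe set. The signals were 5.11, 5.85 and 4.06 in vehicle rats, 7.05, 7.99 and 5.35 in CCl4 rats, and 7.37, 7.46 and 8.07 in CCl4+Rot rats. CCl4+Rot lay above vehicle throughout, but under absent calls no fold is given. Of its other probe sets, 1 was called present on CCl4 replicate 3 alone and 1 on no array. Mean signals of CCl4+Rot and vehicle were 4.625 and 5.372 on the former and 3.552 and 3.409 on the latter, so the direction was not shared by all. The table lists all 3 Lama5 probe sets on the strand opposite to the RefSeq gene on GRCr8. This was so for 11.7% of 15866 probe sets with a single gene, and whether the Lama5 probes read the transcript was not tested.

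Nid1 encodes nidogen-1, the link between laminin gamma 1 and type IV collagen. It was called present on vehicle replicate 3 and CCl4 replicate 1 only, and its probe set was likewise listed on the opposite strand. The signals were 7.26, 7.92 and 7.30 in vehicle rats, 7.31, 7.35 and 7.26 in CCl4 rats, and 7.56, 7.37 and 7.40 in CCl4+Rot rats. The groups were close, apart from a high value in vehicle rat 4. The log2 difference between CCl4 and vehicle was -0.19 (SE 0.21, limma adjusted p = 0.726), and it was 0.025 without that rat.

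Counted together for CCl4 against vehicle, 7 members could be compared, of which 4 were higher and 3 lower, with a median log2 difference of 0.46. Over all probe sets 63.2% were higher, and 54.6% of those present on at least 3 arrays. None of the 7 was called by limma, against a background of 0%, or by the robust fit, against 1.12%. At an unadjusted p below 0.05, Col4a1 and Lamb1 were higher, against a background of 8.64%. Without overlap of the groups, Lamb1 and Lamc1 were higher, against 11.1%, and 3 members were at least 1.5-fold higher, against 28%. The 4 above vehicle were Col4a1, Col4a2, Lamb1 and Lamc1, a share near that of all probe sets. Without CCl4 replicate 3, 5 of 7 were higher, against 51.2% of all probe sets.

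In CCl4+Rot against CCl4 rats, 6 members could be compared, 5 higher and 1 lower, with a median log2 difference of 0.39. Over all probe sets 39% were higher, and 48.5% of those present on at least 3 arrays. None was called by limma or by the robust fit, and each had a background of 0.00322%. Lamb2 alone had an unadjusted p below 0.05, and it was higher, against 1.97%. Lamb2 and Col18a1 were higher without overlap, against 4.73%, and Lamb2 alone was at least 1.5-fold higher, against 6.81%. Without CCl4 replicate 3 all 6 were higher, against 51.3% of all probe sets. Of the 6, the member below its CCl4 mean was Lamc1, at -0.05, and it was above it, at 0.19, after median centring. Col15a1, Lama5 and Nid1 were left out, as their probe sets had no present call in CCl4+Rot rats. Under these calls the mean signal of Col15a1 was below CCl4, and those of Lama5 and Nid1 were above it.

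In CCl4+Rot against vehicle rats, all 6 members compared were higher, with a median log2 difference of 0.71, against 51.1% of all probe sets and 50.9% of those present on at least 3 arrays. None was called by limma, against 0.0258%, and the robust fit called Lamb1, against 0.776%. Col4a1, Col4a2 and Lamb1 had an unadjusted p below 0.05, against 5.63%. The groups did not overlap for 5 of the 6, all but Col18a1, against 11.9%, and 4 were at least 1.5-fold higher, against 15.4%. Col15a1, Lama5 and Nid1 were again left out. The mean signal of Nid1 was below vehicle, and those of Col15a1 and Lama5 were above it. The comparison shares its vehicle rats with the first and its CCl4+Rot rats with the second, so the 3 are not independent.

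**Figure D2:**
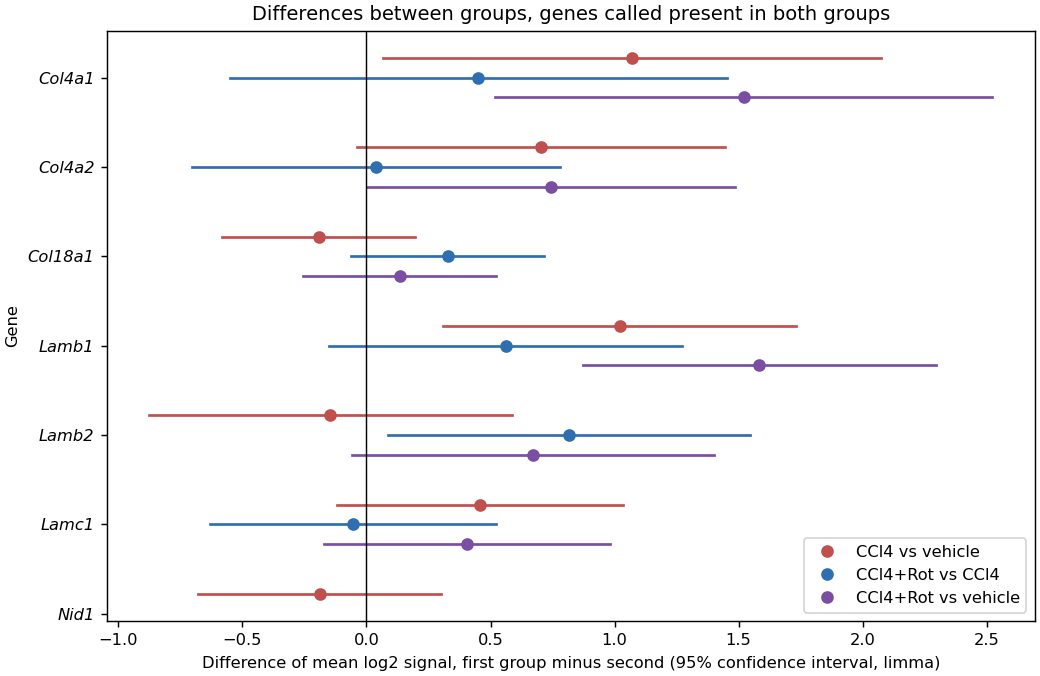
Differences of mean log2 signal (first group minus second) are plotted for the genes called present on at least 1 array of both groups, with 95% confidence intervals from limma over 3 arrays per group and a line at 0. The intervals exclude 0 for Col4a1 and Lamb1 with CCl4, for Lamb2 between CCl4+Rot and CCl4, and for Col4a1, Col4a2 and Lamb1 between CCl4+Rot and vehicle, before adjustment for the number of probe sets.

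The fibrillar collagens, which form the scar, were set beside these genes for size. All 5 measured were higher with CCl4 at an unadjusted p below 0.05, against 8.64% of all probe sets, with a median log2 difference of 1.66, and the robust fit called 4, against 1.12%. Col1a1, the alpha 1 chain of type I collagen, was higher with CCl4 by 2.29 (robust adjusted p = 0.00503), and Col3a1, type III collagen, by 1.17 (robust adjusted p = 0.0332). Col1a2, the partner of Col1a1, was higher by 1.81 and Col5a1, type V collagen, by 1.66 (robust adjusted p = 0.0697 and 0.0331). With CCl4 the change of Col4a1 minus that of Col1a1 was -1.22, and that of Lamc1 minus that of Col1a1 was -1.83, each without overlap of the arrays (exact permutation p = 0.1, adjusted p = 0.191). Col4a1 and Col1a1 differed by 0.00 in their changes between CCl4+Rot and CCl4 (exact permutation p = 1.0). In that comparison all 5 fibrillar collagens were higher, against 48.5% of probe sets present on at least 3 arrays. Their median was 0.45, and none had an unadjusted p below 0.05.

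Likeness of profile was read as the root mean square difference between 2 genes' log2 signals after each was centred on its own mean over the 9 arrays. Of 7057 genes, those nearest to Col4a1 were Fbn1 (fibrillin-1, 0.128), Col6a3 (type VI collagen, 0.152), Col5a2 (type V collagen, 0.166), Sox4 (a transcription factor, 0.185) and Dpp7 (a peptidase, 0.186), and the median gene was at 0.81. Lamb1 was at rank 7 (0.193) and Col3a1 at rank 9 (0.2), while Col4a2, its partner in the trimer, was at rank 343 (0.538). Col1a1 was farther from Col4a1 than Col4a2 was, at rank 950 (0.666). The measure takes in the size of changes as well as their shape. Centred means in vehicle, CCl4 and CCl4+Rot rats were -1.68, 0.61 and 1.06 for Col1a1, and -0.86, 0.21 and 0.66 for Col4a1. For Lamc1, whose profile was flatter, the nearest of 7058 genes included Nras, Prkdc and Rfx5, the 5 nearest lay at 0.0904 to 0.108, and Col4a2 was at rank 633 (0.252). These values describe 9 arrays that share 3 group means.

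**Figure D3:**
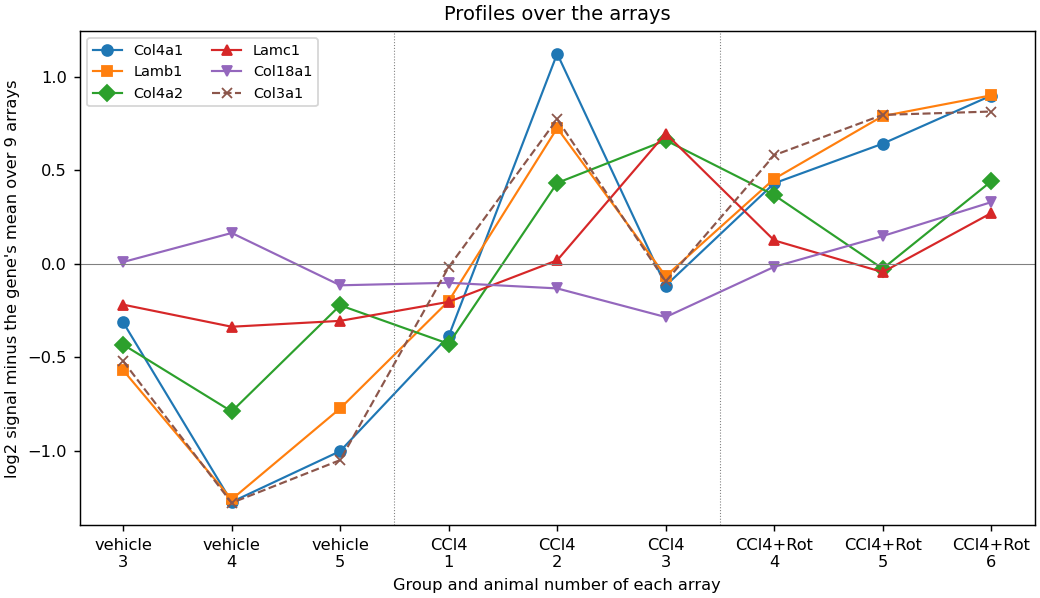
The log2 signal minus the gene's own mean over 9 arrays is plotted for each array, with 1 line per gene. The order of rats within a group has no meaning. Col4a1, Lamb1 and Col3a1 run together, low in vehicle rats 4 and 5 and high in CCl4 rat 2 and the CCl4+Rot rats, while Col4a2 and Lamc1 peak in CCl4 rat 3 and Col18a1 stays within a narrow band.

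Of the other laminin, type IV collagen and nidogen chains, 11 of 12 listed had a probe set and 6 were called present on at least 3 arrays. With CCl4 5 of these 6 were higher, against 54.6% of probe sets present as often, with a median log2 difference of 0.56, and 2, among them Nid2, had an unadjusted p below 0.05, against 8.64%. Nid2, nidogen-2, had 8.26, 8.24 and 8.24 in vehicle rats, 8.44, 8.88 and 9.24 in CCl4 rats, and 8.84, 9.25 and 9.12 in CCl4+Rot rats. It was higher than vehicle on every treated array, by 0.61 with CCl4 (limma adjusted p = 0.361), in contrast to the absent calls of Nid1.

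All 6 of these chains were higher in CCl4+Rot than in vehicle rats, against 50.9% of probe sets present as often. The median log2 difference was 0.87, and 5 had an unadjusted p below 0.05, against the 5.63% above. Col4a5, the type IV alpha 5 chain, was higher by 0.95 (limma adjusted p = 0.389, robust adjusted p = 0.0808), and Lama3, the alpha 3 chain, by 0.03 (limma adjusted p = 0.998). Between CCl4+Rot and CCl4 5 of 6 were higher, against 48.5% of probe sets present as often, with a median of 0.37. Over all 11 chains measured, 6 were higher and 5 lower there, against 39% of all probe sets higher, with a median of 0.008. No chain was called by either fit. In any comparison limma called at most 0.0258% of all probe sets, and the robust fit at most 1.12%. Col4a4, Lama1 and Lamc3 were called present on no array.

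Among 10 other basement membrane associated genes present on at least 3 arrays, 5 were higher and 5 lower with CCl4. The median log2 difference was -0.03, and 54.6% of all probe sets present as often were higher. Sparc, a collagen-binding glycoprotein, was higher by 1.12 (robust adjusted p = 0.0505). Smoc1, a related calcium-binding protein, differed by -1.05 and was called by the robust fit (adjusted p = 0.0363), and Ecm1 differed by -1.14 (robust adjusted p = 0.059). Between CCl4+Rot and vehicle Ecm1 differed by -1.40 and was called by the robust fit (adjusted p = 0.0289). Hmcn1 (hemicentin-1) and Fbln5 (fibulin-5) were higher in CCl4+Rot than in CCl4 rats by 0.70 and 0.68 (limma adjusted p = 0.75 and 0.776).

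Among the receptors of basement membrane, 9 were present on at least 3 arrays, and 7 of these were higher with CCl4, against 54.6% of probe sets present as often. In CCl4+Rot against CCl4 rats 3 of the 9 were higher, against 48.5%, with a median log2 difference of -0.31. Over all 13 receptors measured, 5 were higher and 8 lower there, with a median of -0.076. Itga1, the alpha 1 integrin that binds type IV collagen, had 10.17, 8.39 and 10.10 in CCl4 rats and 7.76, 7.93 and 8.003 in CCl4+Rot rats, against 8.04, 9.54 and 8.38 in vehicle rats. The CCl4+Rot rats lay below the CCl4 rats without overlap, as did 6.88% of all probe sets. The difference between CCl4+Rot and CCl4 was -1.66 (SE 0.55, unadjusted p = 0.0187, limma adjusted p = 0.724), and -1.38 without CCl4 replicate 3. Itga6, an integrin chain for laminins, was higher with CCl4 by 1.15 (limma adjusted p = 0.3) and differed by -0.51 between CCl4+Rot and CCl4 (adjusted p = 0.782). Ddr1, a collagen receptor kinase, and Gpc1, glypican-1, had differences of -1.10 and -0.88 between CCl4+Rot and CCl4. Without CCl4 replicate 3 these differences were -2.34 and -0.41. Ddr1 was called absent on at least 1 array of each group, and Gpc1 on all vehicle arrays and 1 CCl4+Rot array.

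Genes that fold and crosslink type IV collagen were all 12 present on at least 3 arrays. With CCl4 10 were higher, against 54.6% of probe sets present as often, with a median log2 difference of 0.26, and the robust fit called 2, against 1.12%. Serpinh1, the collagen chaperone HSP47, was higher by 1.19 (robust adjusted p = 0.0128), and Plod2, a lysyl hydroxylase, by 1.41 (robust adjusted p = 0.0181). Both were also called by the robust fit in CCl4+Rot against vehicle, at 1.46 and 1.44 (adjusted p = 0.005 and 0.0136). Both act on fibrillar collagens as well. Pxdn, the peroxidase that forms the sulfilimine bond of type IV collagen, was higher with CCl4 by 0.63 (limma adjusted p = 0.499) and in CCl4+Rot than in vehicle rats by 1.07 (adjusted p = 0.454). Loxl2, an oxidase of collagen lysines, was called absent in all vehicle rats and in CCl4+Rot rat 4. Its log2 signals were 7.24, 6.47 and 6.60 in vehicle and 7.65, 8.58 and 8.19 in CCl4+Rot rats (limma adjusted p = 0.454). Under these absent calls no fold is given.

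Of 8 proteases present on at least 3 arrays, 7 were higher with CCl4, against the same 54.6%, and the robust fit called 2, against 1.12%. The median log2 difference was 0.56, and 0.29 without CCl4 replicate 3. Mmp2, a gelatinase that cuts type IV collagen, was higher by 1.18 with CCl4 (robust adjusted p = 0.0406) and by 1.87 in CCl4+Rot than in vehicle rats (adjusted p = 0.00521). Mmp12, the macrophage elastase, was higher by 3.76 with CCl4 (robust adjusted p = 0.00813). It was called absent on vehicle replicates 4 and 5, so the size of this difference rests on signals near background. Between CCl4+Rot and CCl4 Mmp12 differed by -1.20 (limma adjusted p = 0.752), and Mmp3, stromelysin-1, by -0.85 (adjusted p = 0.766). Without CCl4 replicate 3 these differences were -1.53 and -0.25. Across the pathway lists, limma itself called no gene in any comparison. In any comparison it called at most 0.0258% of all probe sets.

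**Figure D4:**
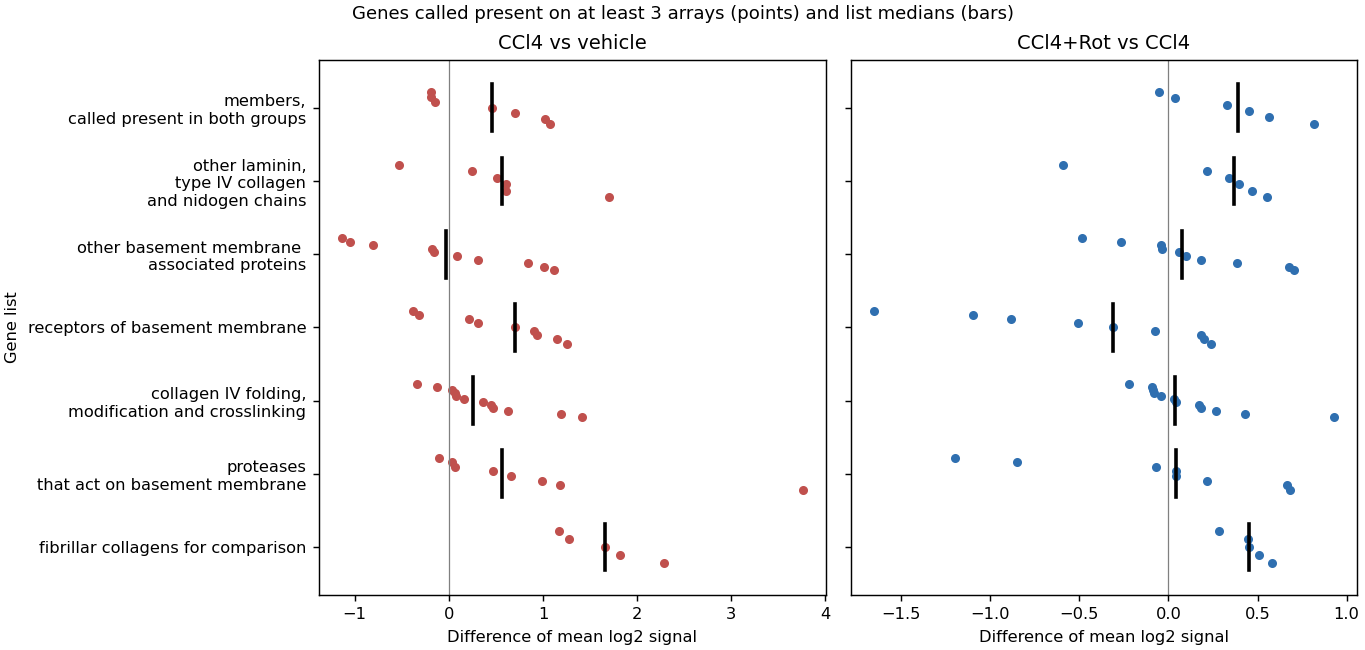
Each point is the log2 difference of 1 gene, for CCl4 against vehicle on the left and CCl4+Rot against CCl4 on the right, with a bar at the median of the list. The top row shows the members called present on at least 1 array of both groups, and the other rows the genes called present on at least 3 arrays. Fibrillar collagens lie to the right of the members with CCl4 (medians 1.66 and 0.46), and receptors have the lowest median on the right (-0.31).

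Markers of cells that make or bear basement membrane moved in part with these genes, and their part in the results was not tested. All 10 stellate cell and myofibroblast markers were measured and present, and the sum of their signals on the linear scale was 8888 to 12790 in vehicle, 17830 to 29910 in CCl4 and 26320 to 31660 in CCl4+Rot rats. The list holds Col1a1 and Col3a1. Col3a1 weighed heavily in the sums, as its mean log2 signal was 12.67 with vehicle, 13.84 after CCl4 and 14.35 when rottlerin was added. Counted by gene, all 10 were higher with CCl4, 5 of them at an unadjusted p below 0.05. Between CCl4+Rot and CCl4, 7 were higher and 3 lower, and none had an unadjusted p below 0.05. Without CCl4 replicate 3, these counts of higher genes were 9 and 10. The 7 cholangiocyte markers measured summed to 1076 to 1386, 2774 to 5621 and 1384 to 2679, with Krt7 and Cldn4 among those present on no array. These sums lay above vehicle without overlap in CCl4 rats for both lists, and the cholangiocyte sums were lower again in CCl4+Rot rats. Of these sums, Spp1 (osteopontin) alone made up 60.6 to 85.5 in vehicle, 956.9 to 4408 in CCl4 and 277 to 1409 in CCl4+Rot rats. Without Spp1, a value chosen after seeing the data, the other 6 summed to 999.8 to 1325, 1213 to 1817 and 1107 to 1355, and the groups overlapped. The 8 sinusoidal endothelial markers summed to 14380 to 16080, 11420 to 16020 and 15160 to 16350, with Flt4 present on no array, and the 8 vascular endothelial markers to 2776 to 2963, 2220 to 3190 and 3111 to 3471. The 7 macrophage markers summed to 18870 to 23790, 23140 to 29320 and 29080 to 32730, and the 9 hepatocyte markers to 228200 to 251900, 171500 to 248600 and 234300 to 250700. With CCl4, 1 of 9 hepatocyte, 3 of 8 sinusoidal and 3 of 8 vascular endothelial markers were higher, against 63.2% of all probe sets. Without CCl4 replicate 3, 5 of 9, 5 of 8 and 5 of 8 were higher, against 51.2%.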

How the data were processed

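Biotin-labelled cRNA was prepared from the liver of 9 rats and hybridised to 1 array each. The authors deposited log2 signals with a detection call for 31099 probe sets. The labels' processing notes name MAS5 and affy, and the trimmed mean of the antilogs is 500 throughout (2% trimmed at each end), so arrays were scaled to 1 mean and signals near background stay noisy. The genome build of the table is not given in the sources used here. The arrays' number limits the precision.

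The deposited log2 values were used as given. After 57 control probe sets were left out, 31042 were fitted with limma 3.58.1 (R 4.3.3, robust fit with statmod 1.5.0), with 3 group means over all 9 arrays and Benjamini-Hochberg adjustment. The methods give the 1.5-fold threshold and name no test for the arrays. A gene called present in only 1 of 2 groups compared was given by its signals, with no fold. Named genes of each list were those with the largest differences among genes present on at least 3 arrays, 3 for CCl4 against vehicle and 2 for CCl4+Rot against CCl4. The members and lists were chosen with earlier results of these data known. Motif searches covered the 250 bases before RefSeq starts (GRCr8). The fits were tested on simulated data. Alternatives covered normalization, filters, tests, probe set choice and leaving out each array. Values of some genes are not reported here.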

Additional observations from a re-analysis of the deposited data

How the results depend on the processing

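The counts of probe sets called depended on the fit, and the cause was not tested. For CCl4 against vehicle (0 called by limma), 78 were called among probe sets present on at least 3 arrays. The counts were 4 without the dimmest 30% of probe sets and 348 by the robust fit. A t-test, which the methods list among general tests and do not tie to the arrays, called 1774 unadjusted. That t-test took 2 members (Lamb1 and Col15a1, the latter called absent). For CCl4+Rot against CCl4 (1 called), 0 were called after quantile normalization, centring on probe sets present on all arrays, the present filter, the dimness filter, with only the groups compared or by the adjusted t-test, and 851 by the unadjusted t-test. For CCl4+Rot against vehicle (8 called), the counts were 3 after quantile normalization, 2 after median centring, 63 with the present filter, 22 with the dimness filter, 1 with only the groups compared, 241 by the robust fit, 73 with array weights, and 2126 and 0 by the unadjusted and adjusted t-test. Here the robust fit took 1 member (Lamb1) and the unadjusted t-test 5 (Col4a1, Col4a2, Lama5, Lamb1 and Lamb2). Leaving out 1 array gave 0, 0 to 2 and 0 to 24 probe sets in limma and 29 to 843, 1 to 11 and 32 to 433 in the robust fit, which took 0 to 2, 0 and 0 to 2 members. The robust fits with an array left out, and the counts of members higher, were chosen after seeing the data.

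Of the log2 differences given for members, 22 values under alternatives had the opposite sign, all of differences under 0.5 in size. No difference is given for Col15a1 and Lama5, and probe sets of each of these genes differed in direction between CCl4+Rot and CCl4. For CCl4 against vehicle, Lamb2 became 0.27 with array weights and ran from -0.45 to 0.20 over arrays left out, Nid1 from -0.31 to 0.025, and Col18a1 was 0.011 on its other probe set. For CCl4+Rot against CCl4, array weights gave -0.10 for Col4a1, -0.0508 for Col4a2 and 0.0717 for Lamc1. Over arrays left out, Col4a2 ran from -0.29 to 0.26 and Lamc1 from -0.24 to 0.21. Lamc1 was also 0.19 after median centring, 0.15 on its other probe set and 0.0463 as the mean of its probe sets. The difference of the changes of Col4a1 and Col1a1 ran from -0.27 to 0.37. Median centring moved the median of all probe sets from 0.18 to -0.18, from -0.12 to 0.13 and from 0.01 to -0.10.

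The labels do not say whether rat numbers shared between groups pair the animals, and the main fit did not pair them. Arrays with the same number had deviations correlated at -0.0896, -0.00466 and -0.0125. So few arrays cannot decide whether they share a litter, batch or day. With the replicate block, 0, 1 and 8 probe sets were called and 0 members, and Col4a1 with CCl4 was 1.08. Genes called absent on most arrays (Col15a1, Lama5 and Nid1) lie near background, where signals limit what can be seen.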
